A study of Mus musculus with 25 samples.

Results

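The genes described here are 10 genes of lipoprotein lipase action and fatty acid uptake: Lpl, Gpihbp1, Lmf1, Angptl4, Cd36, Vldlr, Fabp4, Fabp5, Slc27a1 and Acsl1. They were chosen by name, as the probes whose gene name in the array files is one of these symbols. This gave 20 probes for 10 genes, of 40561 probes for 26420 gene names in the deposited value table. The study compared perigonadal white adipose tissue of C57BL6/J male mice from 2 knockout lines, each with its own wild types. ChREBPβ KO mice (ChREBPbeta_KO, 6 samples) lack exon 1b of Mlxipl, which CRISPR/Cas9 editing removed from every tissue, and they were set beside wild types of that line (ChREBPbeta_WT, 7 samples). Total ChREBP KO mice (ChREBPtotal_KO, 5 samples) are Mlxipl-null and lack both the α and the β isoform, and they were set beside wild types of their line (ChREBPtotal_WT, 7 samples). All 4 groups were on a regular diet, fasted for 24 h and then refed for 18 h with food and water holding 20% glucose. Both deletions are in every tissue and not restricted to fat. Ages are not given in the sources used here.

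Triglycerides reach fat cells in chylomicrons and very low density lipoproteins. Lipoprotein lipase, made mainly by adipocytes, is folded with the help of the endoplasmic reticulum protein LMF1 and carried by GPIHBP1 to the capillary surface, where it frees fatty acids, and ANGPTL4 inactivates it. The fatty acids cross the adipocyte membrane with the help of CD36 and FATP1 (the product of Slc27a1), are turned into acyl-CoA by ACSL1, and are carried in the cytosol by FABP4 and FABP5, while the VLDL receptor binds triglyceride-rich particles at the cell surface. ChREBP is a glucose-responsive transcription factor known for driving lipogenesis, the making of fatty acids from carbohydrate.

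Levels are the log2 values of the deposited table, which the authors quantile-normalised over the arrays, and a level can be compared between samples for 1 probe but not between probes. Differences are in log2 units, with the standard error (SE) and an adjusted p from limma, with Benjamini-Hochberg adjustment over all 40561 probes, and a gene was called at an adjusted p under 0.05. A gene with several probes stands by the one with the highest mean unless another is named. The median spot intensity of an array lay between 84 and 127, 73.0% to 77.9% of the gene spots were well above background and no spot was saturated. All 20 probes of the 10 genes were well above background on all 25 arrays. The brightest Mlxipl probe, for the targeted gene, read 14.07 to 14.29 in total ChREBP KO and 15.74 to 16.24 in total ChREBP WT, a difference of -1.77 (SE 0.14, adjusted p = 1.11e-08). It read 14.02 to 14.64 in ChREBPβ KO and 14.72 to 15.46 in ChREBPβ WT, a difference of -0.74 (SE 0.13, adjusted p = 0.12) with no overlap between the groups. The other 2 Mlxipl probes differed by 0.08 (adjusted p = 0.70) and -0.66 (adjusted p = 0.00103) in the total ChREBP comparison, and by -0.06 and -0.47 in the ChREBPβ one, neither called. So 1 of 3 probes of the targeted gene did not fall in either knockout. Whether a Mlxipl probe lies in the deleted sequence was not tested.

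The sequences of 3 probes and 1 promoter stretch are shown because results below turn on them. The first pair are Lpl probes that the array files assign to the RefSeq transcript, of which 1 passed the test of a difference between the lines and the other did not. The last is the Fabp4 probe that was called where the brighter one was not. Each probe is 60 bases, read 5′ to 3′ in the sense of the gene, with positions on mm9 as the array files give them. The Lpl probes lie at chr8:71425050-71425109 and chr8:71419652-71419711 on the plus strand, and the Fabp4 probe at chr3:10208442-10208501 on the minus strand.
Lpl, second brightest: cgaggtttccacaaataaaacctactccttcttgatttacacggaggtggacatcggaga
Lpl, next brightest: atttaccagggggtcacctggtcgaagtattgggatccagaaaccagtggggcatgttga
Fabp4, second brightest: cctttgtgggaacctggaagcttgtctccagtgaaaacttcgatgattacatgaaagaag

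RefSeq promoter windows (GRCm38.p6) were held for 5 of the 10 genes, 9 windows in all, for Lmf1, Cd36, Vldlr, Slc27a1 and Acsl1. In the 250 bases before the start, on both strands, the E-box CACGTG, the core that ChREBP and its partner MLX bind, stood in 1 of the 9 windows. That window is 1 of the 3 held for Slc27a1, and the other Slc27a1 windows do not hold the E-box. The E-box begins at position -202 from the start. The stretch around it lies at chr8:71570380-71570409 on the plus strand, with the E-box in capitals.
Slc27a1, 30 bases around the E-box: ggggtgtctagcCACGTGgtcagtgcttgg
The same 6 letters stood in 6.02% of all 32851 windows. The letters AGGTCA, which many nuclear receptors bind, stood in 1 of the 9, that of Cd36, against 14% of all windows. A pair of exact E-boxes 5 bases apart, the spacing of a carbohydrate response element, stood in none of the 9. It stood in 0 of all 32851 windows too, so this search could not set any window apart. A pair of AGGTCA 1 base apart stood in none of the 9 and in 11 of all windows (0.0335%). These letters describe the windows and do not show binding.

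In total ChREBP KO fat, 4 of the 10 genes were called against wild type. Lpl, Vldlr and Acsl1 rose by 0.58, 0.66 and 0.63 on the log2 scale, and Slc27a1 fell 2.04-fold. Gpihbp1, Lmf1, Angptl4, Cd36, Fabp4 and Fabp5 did not pass the test. Over all gene names 9.25% were called in this comparison (2444 of 26420), 5.62% higher and 3.63% lower. The median of the 10 differences was 0.02, as was that of all genes, because members moved both ways, while the median size without regard to sign was 0.40 against 0.11 over all genes. For Lpl, Vldlr and Slc27a1, 3 of the 10, no knockout sample overlapped a wild-type one, and 7.48% of all gene names had groups that did not overlap. The 10 genes were chosen with earlier results of these data known. Their shares and medians beside those of all genes, here and below, are therefore descriptions and not tests.

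In ChREBPβ KO fat, 0 of the 10 genes were called by limma, and 0% of all 26420 gene names were. At an unadjusted p under 0.05, Lpl, Gpihbp1, Vldlr and Lmf1 passed, 4 of the 10, where 9.45% of all gene names did. The first 3 had higher means in the knockout and Lmf1 a lower one. The median of the 10 differences was 0.16 against 0.02 over all genes.

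**Figure D1:**
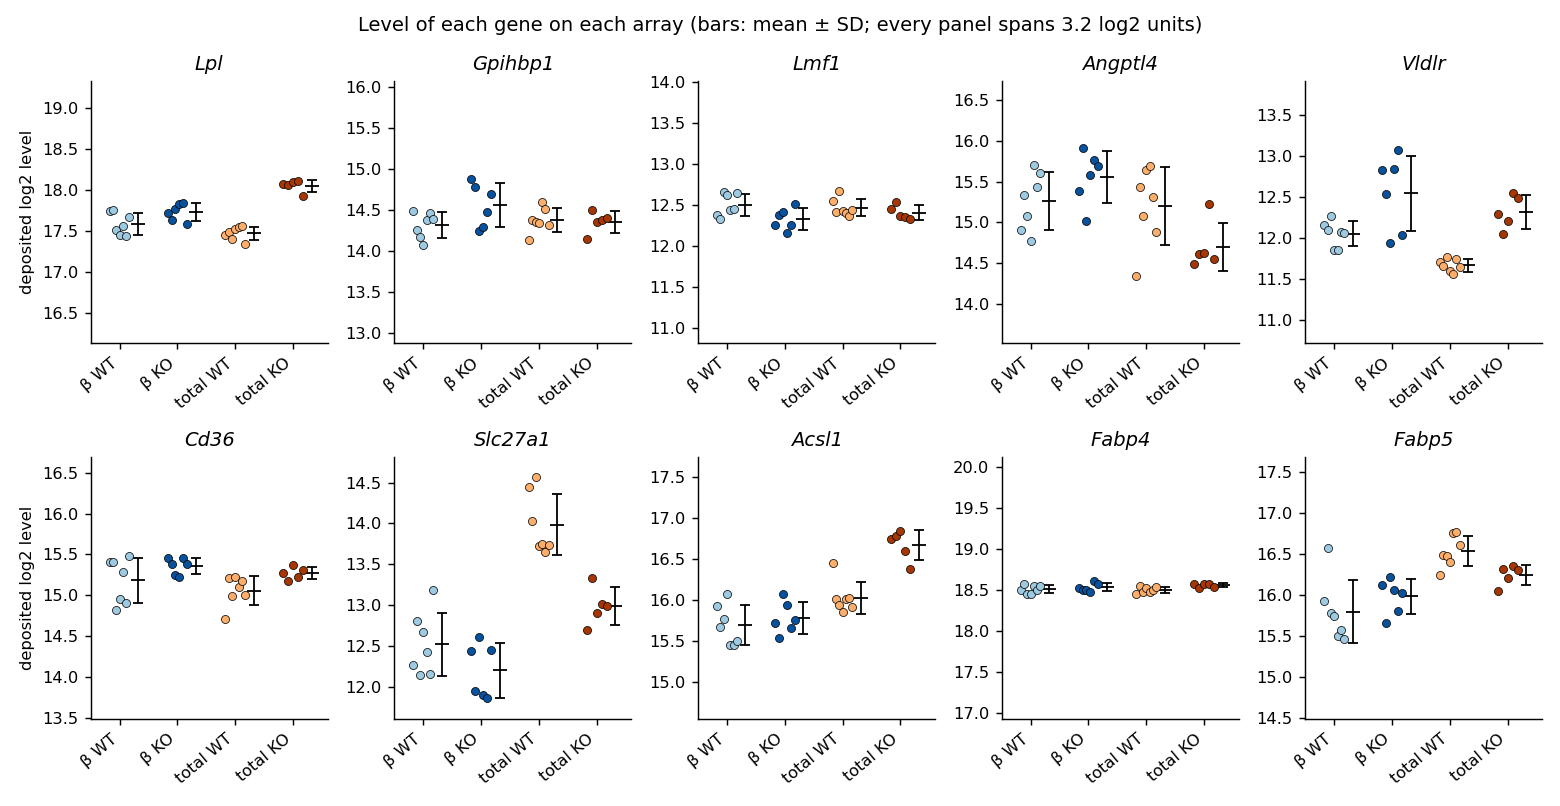
Deposited log2 level of the brightest probe of each of the 10 genes on each of the 25 arrays, by group (7 ChREBPβ WT, 6 ChREBPβ KO, 7 total ChREBP WT, 5 total ChREBP KO), with mean ± SD beside the points. All panels span the same number of log2 units. The 5 total ChREBP KO points for Lpl stand above all others, and the 7 total ChREBP WT points for Slc27a1 stand above all others.

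Lpl itself, the lipase, gave the smallest adjusted p of the 10 in the total ChREBP comparison. Its brightest probe read 18.07, 18.06, 18.09, 18.11 and 17.93 in the 5 total ChREBP KO samples (replicates 1, 2, 3, 4 and 7). In total ChREBP WT it ran from 17.34 through a median of 17.49 to 17.56. Every knockout sample was above every wild type, with a difference of 0.58 (SE 0.07, adjusted p = 3.96e-06). This probe ranked between 33 and 105 of the probes on each array. At such ranks quantile normalisation may narrow a difference, and by how much was not tested. In ChREBPβ WT the level ran from 17.43 through 17.56 to 17.76, and in ChREBPβ KO from 17.58 through 17.74 to 17.85. Those ranges overlapped, with 3 of 6 knockouts above all wild types, and the difference of 0.14 (95% confidence interval 0.01 to 0.28, adjusted p = 0.52) was not called.

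The array holds 6 Lpl probes, between positions 71405538 and 71430326 of chromosome 8 (mm9). Of these, 3 are assigned to the RefSeq transcript, including both printed above, and the other 3 were designed on cDNA clones or an Ensembl transcript and lie upstream of them on the chromosome. All 6 were called higher in total ChREBP KO, with differences from 0.58 to 0.86. On 5 of the 6, no knockout overlapped a wild type. On the sixth, 4 of 5 knockouts were above every wild type. In the ChREBPβ comparison the probes parted in sign. The RefSeq probes gave 0.14, 0.14 and 0.06, and the clone and Ensembl probes -0.23, -0.20 and -0.23, none called.

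**Figure D2:**
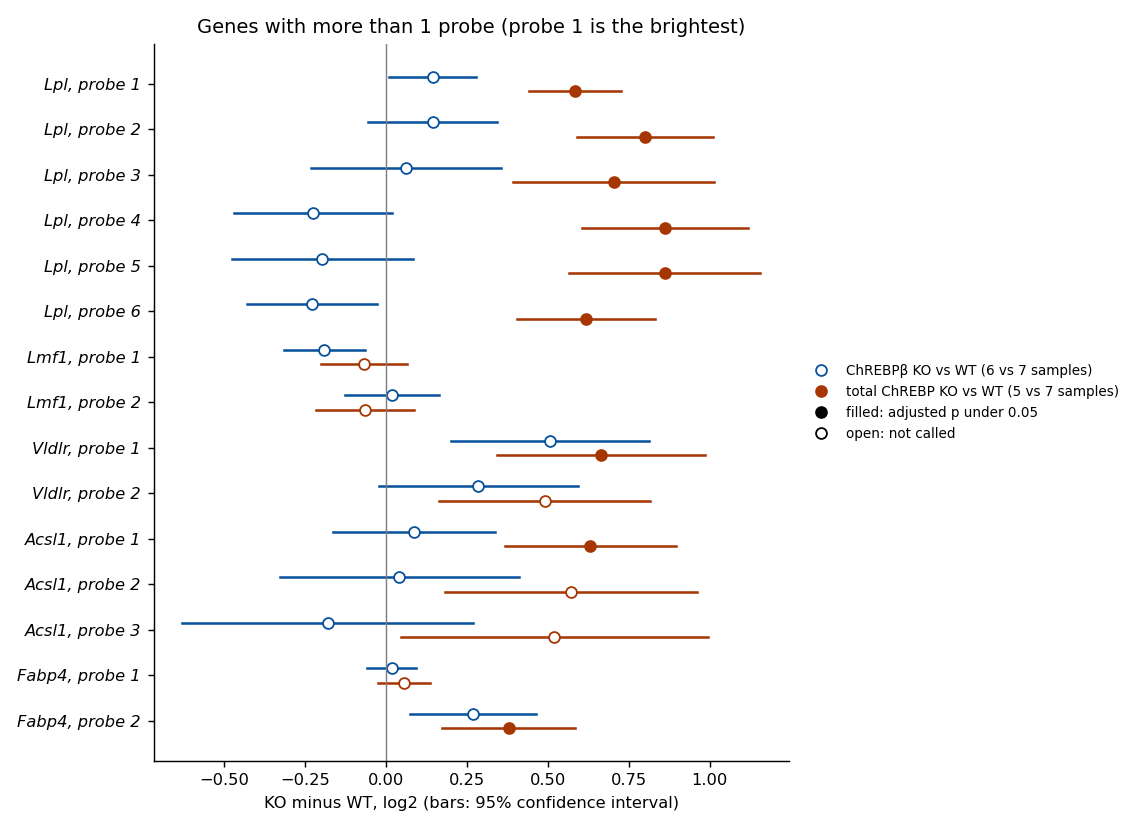
Difference between knockout and wild type in log2 units, with 95% confidence intervals, for every probe of the 5 genes with more than 1 probe. Blue is ChREBPβ KO (6 against 7 samples) and brown total ChREBP KO (5 against 7), and filled points had an adjusted p under 0.05. The 6 Lpl probes are all filled in brown, between 0.58 and 0.86, and none is filled in blue.

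The lipase's partners in the capillary and the endoplasmic reticulum did not pass in either line. Gpihbp1, which anchors the enzyme to the endothelium, read 14.15, 14.50, 14.35, 14.37 and 14.41 in total ChREBP KO and 14.14 to 14.59 in its wild types. The groups overlapped throughout, with a difference of -0.02 (95% interval -0.24 to 0.21, adjusted p = 0.96). In the ChREBPβ line Gpihbp1 ran from 14.24 to 14.88 in the knockout and from 14.07 to 14.49 in the wild type. The difference of 0.26 (95% interval 0.04 to 0.47, adjusted p = 0.46) was not called.

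Lmf1, the lipase's folding factor, ranged from 12.33 to 12.54 in total ChREBP KO and from 12.37 to 12.68 in its wild types. The difference was -0.07 (95% interval -0.20 to 0.06, adjusted p = 0.64). In ChREBPβ KO it ranged from 12.16 to 12.52 against 12.34 to 12.67, a difference of -0.19 (SE 0.06, adjusted p = 0.37), with 3 of 6 knockouts below every wild type. Its second, dimmer probe gave 0.02 in that comparison and -0.06 in the total ChREBP one, with groups that overlapped.

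Angptl4, which encodes the inhibitor of the lipase, is a gene known to be induced by fasting. It ran from 14.34 through 15.31 to 15.69 in total ChREBP WT and read 14.50, 14.62, 14.62, 15.22 and 14.56 in total ChREBP KO. The knockout values lay within the wild-type range, replicate 4 apart from the other 4. The difference of -0.49 (95% interval -0.95 to -0.04, adjusted p = 0.20) was not called. Without total ChREBP WT replicate 2, the lowest wild type, it was -0.64 and called (adjusted p = 0.045). In the ChREBPβ line the difference was 0.30 (95% interval -0.13 to 0.74, adjusted p = 0.72), from 15.02 to 15.91 in the knockout and 14.77 to 15.70 in the wild type.

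At the cell surface, Vldlr, the receptor for triglyceride-rich lipoproteins, rose in total ChREBP KO. It read 12.30, 12.05, 12.21, 12.55 and 12.48 in the 5 knockouts and 11.56 through 11.66 to 11.77 in the wild types. The ranges did not overlap, and the difference was 0.66 (SE 0.15, adjusted p = 0.0075, 1.58-fold). The second Vldlr probe gave 0.49 (adjusted p = 0.055), with 4 of 5 knockouts above every wild type. With the liver marker score of each array as a covariate the difference was 0.53 and not called (adjusted p = 0.085), and with a replicate block it was 0.66 (adjusted p = 0.066).

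In ChREBPβ KO, Vldlr ran from 11.94 through 12.68 to 13.08, against 11.85 through 12.07 to 12.26 in ChREBPβ WT. Of the 6 knockouts, 4 were above every wild type, and the other 2, replicates 4 and 8, were inside the wild-type range. The difference of 0.51 (95% interval 0.20 to 0.81, adjusted p = 0.34) was not called. Its second probe gave 0.29 (adjusted p = 0.60), again with 4 of 6 above every wild type and replicate 4 below all.

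Cd36, the scavenger receptor that takes up long-chain fatty acids, differed little. It read 15.27, 15.18, 15.37, 15.22 and 15.31 in total ChREBP KO and 14.71 through 15.10 to 15.22 in total ChREBP WT. Of the 5 knockouts, 3 were above all wild types, with a difference of 0.21 (95% interval -0.01 to 0.43, adjusted p = 0.27). In ChREBPβ KO it ran from 15.22 to 15.46 against 14.83 to 15.48. The difference of 0.18 (95% interval -0.03 to 0.39, adjusted p = 0.63) was not called either.

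**Figure D3:**
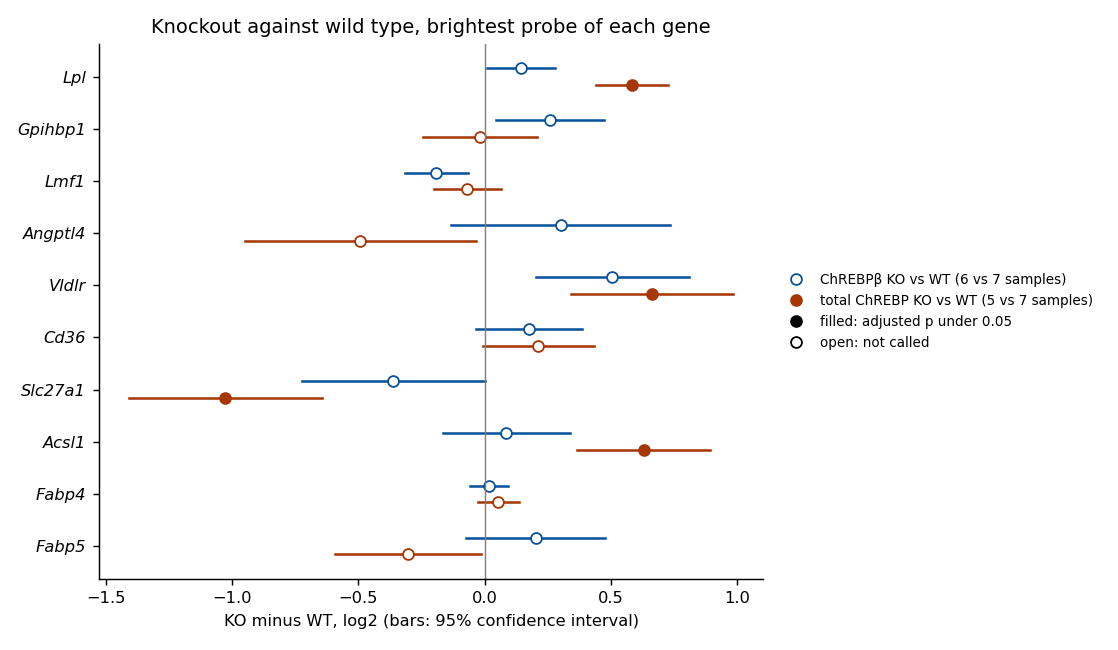
Difference between knockout and wild type in log2 units, with 95% confidence intervals, for the brightest probe of each of the 10 genes. Blue is ChREBPβ KO (6 against 7 samples) and brown total ChREBP KO (5 against 7), and filled points had an adjusted p under 0.05. Lpl at 0.58, Vldlr at 0.66, Acsl1 at 0.63 and Slc27a1 at -1.03 are filled in brown, and no blue point is filled.

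Slc27a1, which encodes the fatty acid transport protein FATP1, had the largest difference of the 10 and the only called fall. It read 12.70, 13.34, 12.91, 13.02 and 12.99 in total ChREBP KO and 13.65 through 13.75 to 14.56 in total ChREBP WT. All 5 knockouts were below all 7 wild types, a difference of -1.03 (SE 0.18, adjusted p = 0.000713). In the ChREBPβ line it ran from 11.87 through 12.20 to 12.61 in the knockout and 12.15 through 12.43 to 13.19 in the wild type. Of the 6 knockouts, 3 were below every wild type, and the difference of -0.36 (95% interval -0.73 to 0.00, adjusted p = 0.56) was not called. This is the gene with the E-box printed above, in 1 of its 3 promoter windows. The part of that E-box in the fall was not tested. Slc27a1 had 1 probe.

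Acsl1, the acyl-CoA synthetase that traps fatty acids in the fat cell, moved the other way. It read 16.74, 16.78, 16.84, 16.59 and 16.38 in total ChREBP KO and 15.85 through 16.01 to 16.45 in total ChREBP WT. Of the 5 knockouts, 4 were above every wild type. Only total ChREBP WT replicate 2, at 16.45, exceeded the lowest knockout. The difference was 0.63 (SE 0.13, adjusted p = 0.00216, 1.55-fold). Its other 2 probes gave 0.57 (adjusted p = 0.063) and 0.52 (adjusted p = 0.19). In ChREBPβ KO the brightest probe ran from 15.53 to 16.08 against 15.45 to 16.07, a difference of 0.09 (95% interval -0.16 to 0.34, adjusted p = 0.90).

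Of the cytosolic carriers, Fabp4, a defining adipocyte gene, was among the brightest probes on every array. Its brightest probe ranked between 4 and 11 of the probes on each array and took only 8 distinct values over 25 arrays, from 18.45 to 18.61. With quantile normalisation a probe at such a rank has little room to differ. Its difference was 0.05 in the total ChREBP comparison (95% interval -0.02 to 0.13, adjusted p = 0.48) and 0.02 in the ChREBPβ one. The Fabp4 probe printed above ranked between 68 and 185. It read 17.65, 17.58, 17.67, 17.74 and 17.67 in total ChREBP KO against 17.13 through 17.33 to 17.42 in wild type, with no overlap, and was called (0.38, SE 0.10, adjusted p = 0.017). In ChREBPβ KO that probe gave 0.27 (95% interval 0.07 to 0.46, adjusted p = 0.40). Scaling to the 75th percentile in place of quantiles gave 0.10 for the brightest probe in the total ChREBP comparison (adjusted p = 0.65). The mean over both Fabp4 probes gave 0.22 and was called (adjusted p = 0.030).

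Fabp5, the second carrier, which macrophages and endothelium also make, was not called in either line. It read 16.05, 16.32, 16.20, 16.35 and 16.31 in total ChREBP KO and 16.25 through 16.48 to 16.76 in wild type, with 2 of 5 knockouts below all wild types and a difference of -0.30 (95% interval -0.59 to -0.01, adjusted p = 0.22). Scaled to the 75th percentile it was -0.48 and called (adjusted p = 0.032). In ChREBPβ KO it ran from 15.65 to 16.21 against 15.45 to 16.57, a difference of 0.20 (95% interval -0.07 to 0.48, adjusted p = 0.70). Its single probe shares a run of 20 bases or more with a probe of 1 other gene name, so its signal may include related transcripts. None of the other 19 probes shares such a run with another gene.

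The arrays were washed in 4 batches, each with samples of every group. Inside each batch the total ChREBP difference of Lpl was positive, from 0.37 to 0.68. Vldlr ran from 0.55 to 0.83, Acsl1 from 0.36 to 0.83 and Slc27a1 from -1.39 to -0.71. All 4 kept their direction in 4 of 4 batches. In the ChREBPβ line Vldlr was higher in 4 of 4 batches, from 0.33 to 0.72, and Lpl and Slc27a1 kept their direction in 3 of 4. A batch held 1 or 2 samples of a group, so these values have no test of their own.

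**Figure D4:**
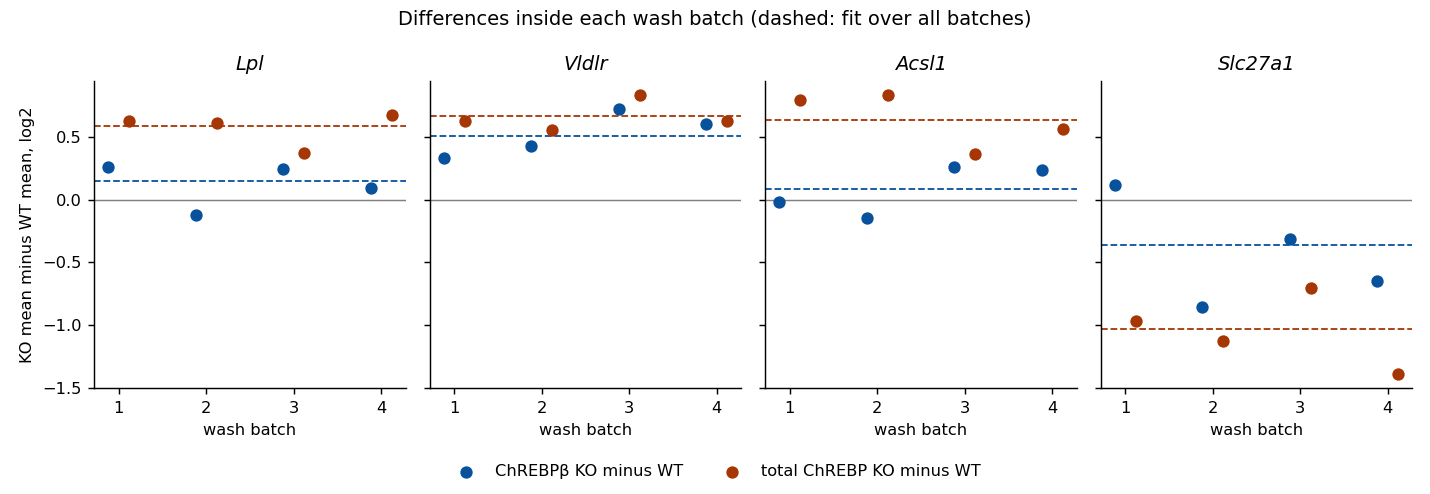
Knockout mean minus wild-type mean in log2 units inside each of the 4 wash batches, for the 4 genes called in the total ChREBP comparison, with dashed lines at the fit over all batches. Every brown point (total ChREBP) lies on the side of its dashed line's sign, and the blue points (ChREBPβ) of Lpl, Acsl1 and Slc27a1 lie on both sides of 0.

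Whether the effect of the knockout differed between the lines was tested as a difference of differences, which uses all 4 groups. It was called for 1 of the 10 genes, Lpl, against 3.47% of all gene names (918 of 26420). Lpl's difference in the total ChREBP line was larger than in the ChREBPβ line by 0.44 (SE 0.09, adjusted p = 0.00824), and 5 of the 6 Lpl probes passed. The third brightest probe missed, at 0.64 (adjusted p = 0.11). With a replicate block the Lpl difference was 0.46 and not called (adjusted p = 0.054). For Slc27a1 it was -0.67 (95% interval -1.19 to -0.14, adjusted p = 0.21) and for Acsl1 0.54 (95% interval 0.18 to 0.91, adjusted p = 0.11). For Angptl4 it was -0.80 (95% interval -1.42 to -0.17, adjusted p = 0.21), and for Fabp5 -0.51 (95% interval -0.91 to -0.11, adjusted p = 0.21). For Vldlr, whose mean was higher in both knockouts, it was 0.16 (95% interval -0.28 to 0.60, adjusted p = 0.89).

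The wild types of the lines also differed from each other. Between them 3 of the 10 genes were called, against 22% of all gene names, and all 3 were higher in total ChREBP WT. Slc27a1 was 2.75-fold higher (difference 1.46, SE 0.17, adjusted p = 8.48e-06), and all 7 total ChREBP WT samples stood above all 7 ChREBPβ WT. Fabp5 was higher by 0.74 (SE 0.13, adjusted p = 0.000329) and Acsl1 by 0.34 (SE 0.11, adjusted p = 0.039). All 3 Acsl1 probes were called in this comparison, as was the second Lmf1 probe (0.19, adjusted p = 0.049), though the brightest Acsl1 probe lost its call in 9 of the 14 fits that left out 1 array (adjusted p up to 0.091). For Vldlr all 7 total ChREBP WT samples were below all 7 ChREBPβ WT, but the difference of -0.39 (SE 0.14, adjusted p = 0.054) missed the threshold, and it passed when only the compared groups were fitted (adjusted p = 0.00555). Line and colony cannot be told apart here.

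Markers of other cell types differed between the wild types too. In total ChREBP WT, 3 of 6 brown adipocyte markers and 2 of 4 muscle markers were called higher and none of either list lower. Over all gene names 22% were called in this comparison, in either direction. Of 4 kidney markers 3 were lower, and 1 of 2 epididymis markers was higher. Also lower were 1 of 6 lymphocyte and 1 of 16 macrophage markers, and 1 of 8 progenitor markers was higher. Of 11 adipocyte markers 2 were higher and 2 lower. The brown adipocyte score ran from -0.19 to 1.18 in total ChREBP WT and from -0.48 to 0.23 in ChREBPβ WT, and the muscle score from -0.15 to 0.69 and from -0.26 to 0.57. The total ChREBP WT samples highest in Slc27a1, replicates 4 (14.56) and 2 (14.44), also had that group's highest brown adipocyte scores, 1.02 and 1.18. In total ChREBP KO, replicate 7 had the highest brown adipocyte score, 1.11, and its Slc27a1 level of 12.99 was that group's median. Between the wild types Slc27a1 stayed called without any 1 array (adjusted p up to 4.03e-05). No fit left out total ChREBP WT replicates 4 and 2 together, and the part of brown adipocyte content in the Slc27a1 result was not tested.

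Between the knockouts, 4 of the 10 genes were called, against 18.3% of all gene names. In total ChREBP KO, Acsl1 was higher than in ChREBPβ KO by 0.88 (SE 0.13, adjusted p = 0.000103), Slc27a1 by 0.79 (SE 0.19, adjusted p = 0.00568) and Lpl by 0.32 (SE 0.07, adjusted p = 0.00313). Angptl4 was lower by 0.86 (SE 0.23, adjusted p = 0.011). All 6 liver markers were lower in total ChREBP KO than in the other knockout. With the liver score as a covariate, the Lpl difference was 0.27 (adjusted p = 0.22) and that of Angptl4 -1.18 (adjusted p = 0.079), neither called, while Slc27a1 and Acsl1 were still called. Both of these comparisons share samples with the knockout comparisons above.

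Put in order by group means, Lpl stood highest in total ChREBP KO, then ChREBPβ KO, ChREBPβ WT and total ChREBP WT. Only the first step passed the test. For Slc27a1 the order was total ChREBP WT, total ChREBP KO, ChREBPβ WT and ChREBPβ KO, and only the first step passed. For Acsl1 it was total ChREBP KO, total ChREBP WT, ChREBPβ KO and ChREBPβ WT, again with only the first step called. For Vldlr the order was ChREBPβ KO, total ChREBP KO, ChREBPβ WT and total ChREBP WT, and no step passed the adjusted threshold, although the groups of the last step did not overlap. No step passed for Gpihbp1, Lmf1, Angptl4, Cd36, Fabp4 and Fabp5 either, although for Angptl4 and Fabp5 the 95% interval of the step between total ChREBP WT and KO, printed above, left out 0.

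Markers of cell types were read on the same arrays. The mean level of 11 adipocyte markers lay between 15.46 and 15.98 on all arrays. Their score (the mean distance from each marker's median over arrays) ran from 0.17 to 0.24 in total ChREBP KO and from -0.28 to 0.04 in total ChREBP WT, and 4 of the 11 markers were called higher. A change in the number of fat cells and a change in RNA per fat cell cannot be told apart in such tissue samples, and the part of adipocyte content in the Lpl, Vldlr and Acsl1 results was not tested. In the same comparison 1 of 6 brown adipocyte markers was called higher, although the median difference of those 6 was -0.28. Called lower were 1 of 8 progenitor and 1 of 6 liver markers. Over all gene names the shares in this comparison were 5.62% higher and 3.63% lower. No endothelial marker of 13 and no macrophage marker of 16 was called, and in ChREBPβ KO no marker of any of the 11 lists was.

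Markers of other organs (liver, kidney and epididymis) were uneven. The liver score ran from -5.54 to -4.35 in total ChREBP KO, from -5.09 to 0.87 in total ChREBP WT, from -1.42 to 3.28 in ChREBPβ KO and from 0.00 to 3.94 in ChREBPβ WT. Between the wild types, all 6 liver markers were lower in the total ChREBP line, where 22% of all gene names were called in either direction. With the liver score as a covariate, Lpl (0.56), Acsl1 (0.77) and Slc27a1 (-0.90) were still called in total ChREBP KO. Kidney scores were highest in ChREBPβ WT replicates 1, 3 and 7 and in ChREBPβ KO replicate 2, from 2.77 to 5.25. Without these 4 arrays, 0 of the 10 genes were called in the ChREBPβ comparison, and the same 4 genes were called in the total ChREBP one. That fit kept ChREBPβ KO replicates 4 and 5 and ChREBPβ WT replicate 4, with kidney scores of 1.75, 1.14 and 1.04. Epididymis markers were highest in total ChREBP WT replicate 2, with a score of 4.51. Without that sample 5 of the 10 genes were called, the 4 above and Angptl4.

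Beyond the 10 genes, 5 lists of 74 neighbouring genes were read, 71 of them with a probe. Of 19 vascular lipolysis partners, 2 fell and none rose in total ChREBP KO, where 3.63% of all gene names fell and 5.62% rose. Angptl8, which is induced by insulin and restrains the lipase, fell by 1.76 on the log2 scale (3.39-fold, adjusted p = 9.39e-06). Sorl1, a sorting receptor known to bind the lipase inside cells, fell by 1.09 (2.13-fold, adjusted p = 0.000187). The list's median was -0.27, where that of all genes was 0.02, and it includes apolipoproteins that the liver makes. Between the wild types, 11 of the 19 were lower and 2 higher in the total ChREBP line, where 22% of all gene names were called in either direction. All 6 liver markers were lower in that comparison, and the part of liver transcripts in the result for this list was not tested. The effect on Angptl8 differed between the lines by -1.86 (adjusted p = 0.000532) and that on Sorl1 by -1.37 (adjusted p = 0.00107). Apoc1 and Sdc4 also differed between the lines, by 1.23 (adjusted p = 0.035) and 0.64 (adjusted p = 0.046).

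Of 11 lipoprotein receptors, none was called in either knockout comparison, with medians of 0.05 in total ChREBP KO and -0.03 in ChREBPβ KO. In total ChREBP KO 5.62% of all gene names rose and 3.63% fell. Of 17 fatty acid carriers and acyl-CoA synthetases, 1 rose and none fell, near those shares. The 1 that rose was Acsl3, another long-chain acyl-CoA synthetase, by 0.61 (SE 0.15, adjusted p = 0.015). The median of that list was -0.17.

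Of 14 genes of the membrane domains and endothelial signals that control fatty acid uptake, 4 rose and none fell in total ChREBP KO, against the same 5.62% and 3.63% over all gene names, with a median of 0.20. The caveolins Cav1 and Cav2, which build the adipocyte's caveolae, rose by 0.73 (adjusted p = 0.00270) and 0.69 (adjusted p = 0.000367). Vegfb, a growth factor for endothelium, rose by 0.42 (adjusted p = 0.011) and its coreceptor Nrp1 by 0.30 (adjusted p = 0.020). Of 10 peroxisome proliferator-activated receptors and partners, 2 rose and 1 fell, beside those same shares over all gene names. Nr1h3 (liver X receptor α) rose by 0.38 (adjusted p = 0.00232) and Rxra, the shared partner receptor, by 0.31 (adjusted p = 0.011). Ppargc1b, a coactivator of mitochondrial genes, fell by 0.63 (adjusted p = 0.00565). The effect on Ppara differed between the lines by 1.58 (adjusted p = 0.017). In ChREBPβ KO none of the 71 genes was called, and the list medians ran from -0.27 to 0.19.

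**Figure D5:**
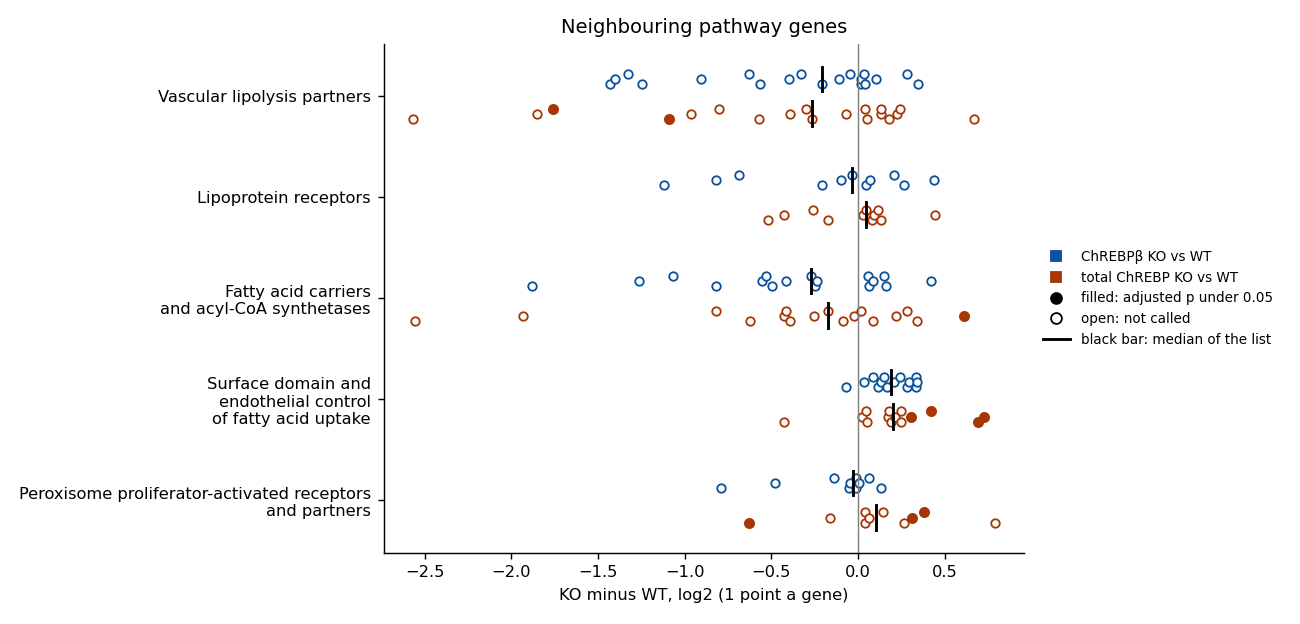
Difference between knockout and wild type in log2 units for the 71 neighbouring genes with a probe, 1 point a gene, in 5 lists, with a black bar at the median of each list. Blue is ChREBPβ KO and brown total ChREBP KO, and filled points had an adjusted p under 0.05. The filled points are all brown: 2 in the first list, 0 in the second, 1 in the third, 4 in the fourth and 3 in the fifth.

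Over the 25 arrays, the genes whose levels followed the brightest Lpl probe most closely were Nnmt (Pearson's r = 0.90), Sulf2 (0.90), Tmeff1 (0.90), Rab3d (0.87) and Evi5l (0.87), of 16228 other gene symbols. All points share the 4 groups, so this largely orders genes by their group means. After subtraction of group means the 5 nearest were Akap13 (0.81), Igfbp7 (0.79), Evi5l (0.78), Hs2st1 (0.77) and Cenpp (0.76), and Evi5l was in both sets. Of the other 9 genes, Cd36 came nearest to Lpl within groups (0.55) and Lmf1 was farthest (-0.50). Among the 10, the highest positive correlation within groups was between Cd36 and the brightest Fabp4 probe (0.71), and the strongest of all was negative, between Angptl4 and Acsl1 (-0.73 within groups and -0.77 over all arrays). These correlations are descriptions over 25 arrays.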

How the data were processed

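Total RNA of 25 fat samples was labelled with Cy3 and hybridised to Agilent mouse arrays. The authors read median spot intensity with Agilent Feature Extraction 10.10.1.1 (per the submitters' processing notes), kept spots well above background on enough arrays, quantile-normalised them and took the median of replicated probes, and the deposited table holds log2 values of 40561 probes. Its columns correlated with the log2 scanner intensity at 0.9998 or more. The deposited scanner intensity files supplied probe names, flags and the rebuilt alternatives.

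Groups came from the sample titles. limma 3.58.1 (R 4.3.3) was fitted to all 25 arrays with 4 groups and wash batch as fixed terms, and p-values were adjusted over all probes. Nothing in the labels shows whether samples were separate animals, so p-values measure the spread between samples. The fit was tested on simulated data. Samples with the same replicate number in different groups had correlations of deviations from -0.29 to 0.45. No such correlation was computed for samples with different numbers, so whether replicate numbers pair the samples was not settled. The main fit did not pair them. The genes and lists were chosen with earlier results of these data known. Named genes were all 10 members and Mlxipl, neighbouring genes called in a knockout comparison (at most 4 a list), and the 5 nearest to Lpl by r, clone and predicted gene names left out. RefSeq supplied promoter windows (GRCm38.p6). Apoc1, Sdc4 and Ppara, called between the lines alone, were named after their values were seen.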

Additional observations from a re-analysis of the deposited data

Results flagged for a closer look

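The effect of the knockout on Lpl differed between the lines by 0.44 (log2, adjusted p = 0.00824), a test of the difference itself. In 4 cases 1 sample stood apart from its group by Dixon's criterion at 95%, which by chance marks about 1 group in 20. Lpl was lowest in total ChREBP KO replicate 7, at 17.93. Angptl4 was highest in total ChREBP KO replicate 4, at 15.22. Fabp5 was highest in ChREBPβ WT replicate 2, at 16.57, and without that sample the effect on Fabp5 differed between the lines by -0.65 and was called (adjusted p = 0.00210). Acsl1 was highest in total ChREBP WT replicate 2, at 16.45, the sample with the highest epididymis markers, and without it the effect on Acsl1 differed between the lines by 0.62 and was called (adjusted p = 0.025). The samples left out for Fabp5 and Acsl1 were named here by the values of the same genes, so these calls are not separate tests.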

How the results depend on the processing

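Calls in the total ChREBP comparison of Lpl, Slc27a1 and Acsl1 held under all 13 other settings and without any 1 array. Over the 13 settings the differences ran from 0.51 to 0.74 for Lpl, -1.06 to -0.90 for Slc27a1 and 0.50 to 0.77 for Acsl1. With 1 array left out Slc27a1 ran from -1.12 to -0.92, and Lpl and Acsl1 stayed inside those ranges. No member was called in ChREBPβ KO under any of the settings or without any 1 array. Replicate numbers are shared by the groups, and whether they pair the samples was not settled. With a replicate block the count of members whose effect differed between the lines was 0 instead of 1. That count was 4 with array quality weights, 2 when the liver score was a covariate, and 1 to 2 with 1 array left out, the higher count without ChREBPβ WT replicate 2 or total ChREBP WT replicate 2. With the liver score, which was added after seeing the data as was leaving out the arrays highest in kidney transcripts, the count between the knockouts was 2 instead of 4. Lpl (0.27 against 0.32) and Angptl4 (-1.18 against -0.86) lost their calls, with differences in the same direction. Over all genes, with the liver score, 1578 were called in the total ChREBP comparison instead of 2444, 2021 between the wild types instead of 5824 and 1684 between the knockouts instead of 4831. Without the arrays highest in kidney transcripts 2662 were called between the wild types. Array quality weights gave 3678 in the total ChREBP comparison and 1506 between the lines instead of 918, and the replicate block 522. In ChREBPβ KO, with 0 genes called, array quality weights called 38, the rebuilt scanner files and normexp 2 each, and leaving out ChREBPβ KO replicate 4 called 66. The cause was not tested.

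The following changed sign, none of them called. With the mean over probes, the ChREBPβ difference was -0.050 for Lpl and -0.018 for Acsl1. In the total ChREBP comparison Gpihbp1 was 0.0052 with rebuilt scanner files, 0.0033 with normexp and 0.0072 with no filter, and -0.064 to 0.035 with 1 array left out. For Cd36 the difference between the lines was -0.017 with the replicate block, -0.049 with quality weights, -0.034 with the liver score and -0.023 to 0.087 with 1 array left out. Between the wild types, scaling to the 75th percentile gave 0.025 for Lmf1, 0.067 for Angptl4, 0.012 for Cd36 and 0.026 for Fabp4. Quality weights gave 0.099 for Angptl4 and 0.012 for Fabp4, and the mean over probes 0.075 for Lmf1 and 0.080 for Fabp4. The liver score gave -0.10 for Gpihbp1 and 0.046 for Lmf1. Leaving out 1 array gave -0.16 to 0.089 for Angptl4 and -0.015 to 0.0088 for Fabp4. Between the knockouts Cd36 was 0.028 at the 75th percentile and Fabp4 -0.014 with the liver score. The difference between the lines uses all groups, so it has no value with only the compared groups. The number of arrays limits the precision.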
